A study of Mus musculus with 7 samples.

Results

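JUNB is one of the proteins that pair up to form the transcription factor AP-1, and its positions were examined here at 10 genes of the contractile apparatus of fibroblasts: Myh9, Myl9, Acta2, Actn1, Tpm1, Tpm2, Cnn1, Cnn2, Tagln and Vim. The genes were chosen by name, and each JUNB region was given to the protein-coding gene with the nearest end within 100 kb. Of 12655 JUNB regions in all, 31 belonged to these 10 genes of 21900 protein-coding genes: 11 to Myh9, 8 to Tpm1, 7 to Actn1, 4 to Vim and 1 to Tpm2. Acta2, Tagln, Cnn1, Cnn2 and Myl9 had none. Of all protein-coding genes, 25.1% owned a region in any library, so most genes had none.

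Binding was mapped by CUT&RUN, in which a nuclease tethered to an antibody cuts out the DNA around the bound protein, in mouse embryonic fibroblasts of the iMGT-Myh6-eGFP-MEF line. These cells carry a doxycycline-inducible set of Mef2c, Gata4 and Tbx5 (MGT), factors that turn fibroblasts towards cardiomyocytes, and a Myh6-eGFP reporter. By their titles, 2 libraries came from cells given an siRNA against Chst7 (siChst7), a chondroitin sulfate sulfotransferase, and 2 from cells given a control siRNA (siControl), all induced with doxycycline and harvested at day 1. The treatment protocol names siJunb, siH1f0 and siControl and not siChst7, so the titles and treatment labels give the groups. Another 3 libraries made with IgG were not analysed here, and no expression values were at hand to check the fibroblast label or the level of any gene. The line is a single engineered line, and the titles number the libraries of a group as biological replicates, with no word on how their cultures were kept apart.

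Fibroblasts pull on their surroundings with stress fibres, bundles of actin in which nonmuscle myosin slides the filaments. Tropomyosins and calponins coat the filaments, alpha-actinin ties them together, and vimentin filaments run beside them. In activated fibroblasts many of these genes are controlled by serum response factor (SRF) and its MRTF cofactors, which bind the CArG box, and AP-1 binds the letters TGANTCA.

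The promoter windows of 4 genes are shown because they hold a contrast: a JUNB region called in all 4 lists overlapped the Vim and Myh9 windows, and no region overlapped the Cnn2 or Myl9 windows. The 4 were picked for this and do not stand for the set. No region overlapped the Acta2, Cnn1, Tpm1 or Tpm2 windows either, and none of those held a CArG box. Each window runs from 250 bases before to 50 after the RefSeq start site (GRCm38.p6). In the Vim window (chr2:13574061-13574360, plus strand) and the Myh9 window (chr15:77842126-77842425, minus strand), capitals mark the bases inside the peak of every list whose peak reached the window. In the Cnn2 window (chr10:79988350-79988649, plus strand) and the Myl9 window (chr2:156775214-156775513, plus strand), capitals mark a match to the CArG box.
Vim: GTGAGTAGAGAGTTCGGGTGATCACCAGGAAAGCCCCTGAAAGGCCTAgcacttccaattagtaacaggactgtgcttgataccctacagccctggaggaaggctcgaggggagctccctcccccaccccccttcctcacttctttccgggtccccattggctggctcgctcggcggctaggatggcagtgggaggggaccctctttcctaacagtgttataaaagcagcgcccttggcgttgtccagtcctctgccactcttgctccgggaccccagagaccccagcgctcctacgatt
Myh9: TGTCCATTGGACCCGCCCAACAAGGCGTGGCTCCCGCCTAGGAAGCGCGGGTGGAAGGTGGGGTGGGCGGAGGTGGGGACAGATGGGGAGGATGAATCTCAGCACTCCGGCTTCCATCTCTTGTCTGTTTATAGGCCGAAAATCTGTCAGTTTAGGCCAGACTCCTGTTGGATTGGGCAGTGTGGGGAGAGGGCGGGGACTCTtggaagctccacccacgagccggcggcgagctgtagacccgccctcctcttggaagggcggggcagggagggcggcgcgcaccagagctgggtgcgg
Cnn2: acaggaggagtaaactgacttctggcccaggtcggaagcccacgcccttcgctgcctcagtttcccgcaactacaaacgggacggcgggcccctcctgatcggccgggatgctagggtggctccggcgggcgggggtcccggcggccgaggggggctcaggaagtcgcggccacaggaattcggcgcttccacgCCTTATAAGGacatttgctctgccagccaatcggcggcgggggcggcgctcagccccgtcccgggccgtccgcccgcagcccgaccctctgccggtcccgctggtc
Myl9: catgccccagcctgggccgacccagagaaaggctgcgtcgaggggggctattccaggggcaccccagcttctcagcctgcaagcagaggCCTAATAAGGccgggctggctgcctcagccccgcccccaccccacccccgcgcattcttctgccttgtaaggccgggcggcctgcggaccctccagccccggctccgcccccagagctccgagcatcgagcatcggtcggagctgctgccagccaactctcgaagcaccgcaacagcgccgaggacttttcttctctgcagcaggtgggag

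Of the 10 genes, 9 had an entry in the promoter table, all but Tagln. On either strand, TGANTCA stood in 0 of the 9 windows, against 6.99% of 21263 windows of protein-coding genes. TGACGTCA, the cyclic AMP response element, stood in 0 of 9, against 2.23%. The CArG box, counted only where CC, 6 letters that are each A or T, and GG followed each other with no mismatch, stood in 2 of 9, those of Cnn2 and Myl9, against 1.52%. Boxes that differ from this pattern by 1 base, as some known ones do, were not counted. Of the windows that overlapped a region found in all 4 lists, 201 in number, 19.4% held TGANTCA. The CArG box stood in 1.49% of these 201, a share near the 1.52% of all windows. The Vim window holds tataaa from 32 bases before the start. On the other strand the Myh9 window holds it too, printed as TTTATA, from 123 bases before the start. A match on either strand was found in 12.6% of windows. These counts describe the printed windows, and the DNA under the peak summits outside them was not searched.

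Of the 10 genes, 5 owned JUNB regions that both siRNA groups shared. In both siChst7 libraries Actn1, Myh9, Tpm1, Tpm2 and Vim each owned a region, against 11.3% of all protein-coding genes, and the same 5 each owned one called in both siControl libraries, against 11% of all. The same 5 also owned a common region, that is, one called in all 4 libraries, against 8.33% of all genes. The 5 genes with regions lay nearest to more of the genome, with a median of 119.8 kb per gene, than the 5 without, with a median of 18.3 kb, and the median of all genes was 46.4 kb. In the tenth of genes with the longest such stretch 17.3% owned a common region, and in the tenth with the shortest 1.87%. By gene, Vim, Myh9, Tpm1 and Actn1 owned a common region with 57.4, 119.8, 134.3 and 155.7 kb, and Tpm2 with 11.4 kb. The genes without one ran from 9.46 kb at Cnn2 to 36.3 kb at Myl9. The part of this length in the count was not tested.

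**Figure D1:**
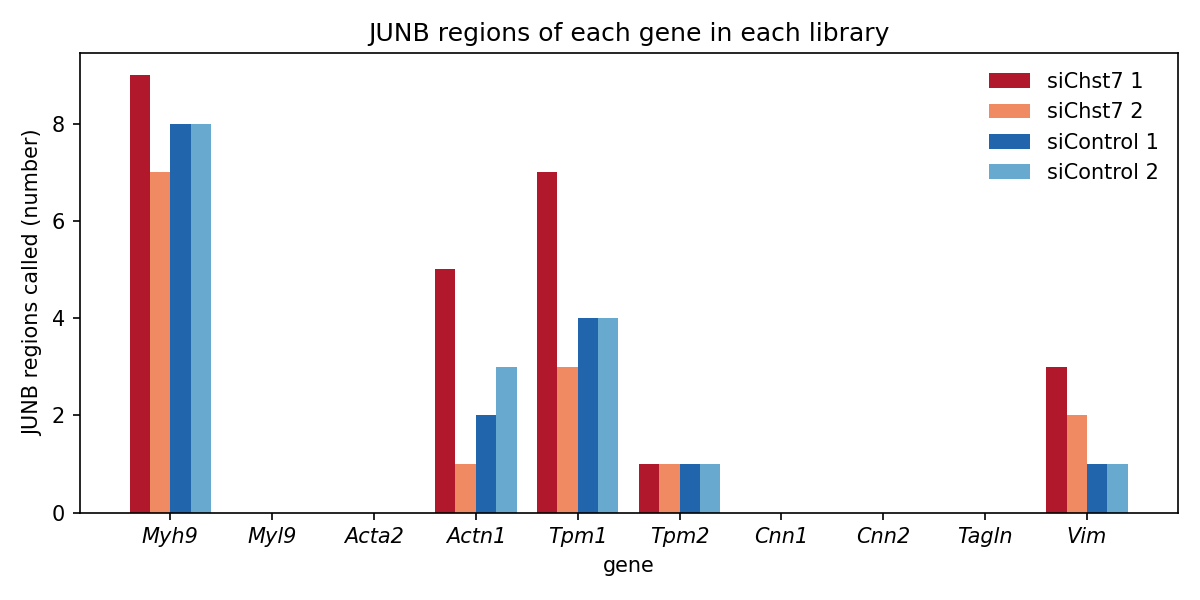
Number of JUNB regions called for each gene, with 1 bar per library (siChst7 replicates 1 and 2, then siControl replicates 1 and 2). Myh9 had 7 to 9 regions in every library, Tpm2 had 1 in each, and Myl9, Acta2, Cnn1, Cnn2 and Tagln had none.

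The number of regions of these genes was highest in the longest peak list and lowest in the shortest. The siChst7 libraries held 25 and 14 of the 31 regions, and the siControl libraries 16 and 17. The lists themselves held 10163 and 4735 peaks in siChst7, against 6469 and 5827 in siControl. The siChst7 mean was 19.5 ± 7.78 regions and the siControl mean 16.5 ± 0.707 (SD, n = 2 each), a difference of 3 regions (two-sided exact permutation of the 4 libraries, p = 1, where the smallest possible p is 0.333). The siChst7 values lie on both sides of the siControl values. Without siChst7 replicate 1 the difference was -2, and with lists cut to equal length it was -0.5. In shares of each library's regions, the genes held 0.249% and 0.304% in siChst7, against 0.253% and 0.300% in siControl.

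Of the 31 regions, 10 were called in all 4 libraries, 4 in 3 libraries, 3 in 2 and 14 in 1. Thus 32.3% of the 31 were in all 4 lists, against 22.0% of all regions. Of the 14 regions called once, 8 were in siChst7 replicate 1, the longest list, and 2 in each other library. The 3 regions in 2 lists were all in siChst7 replicate 1 and siControl replicate 2, so that a mixed pair and not an siRNA group shared them. No region of the 10 genes was called in both siChst7 libraries and neither siControl library, a class in which 1.81% of all genes own a region. None was called in both siControl libraries and neither siChst7 library, a class with 0.795% of all genes. Of the 4 regions in 3 lists, 2 lacked siChst7 replicate 2 and 2 lacked siControl replicate 2.

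The motor gene Myh9 (chromosome 15, 77760585 to 77842175, mm10, minus strand) encodes the heavy chain of nonmuscle myosin IIA. It held 5 common regions, a number of 5 or more being reached by 0.0594% of all genes, or 13 genes. Myh9 lay nearest to 119.8 kb of the genome, against a median of 46.4 kb for all genes. Neighbouring regions only 47 bp apart were counted separately, and the part of length and joining in this count was not tested. One of the 5 overlapped the start, with its median summit 429 bp upstream (chr15:77841896-77843052). It had fold enrichments of 8.46 and 6.53 in siChst7, against 11.3 and 7.18 in siControl. Fold enrichment is the authors' peak height over local background, a value of the peak in its own list. Folds of different lists are printed side by side, and no difference between them is read as a change. A highest fold or a range given over lists mixes values of different lists. In siChst7 replicate 2 the peak stopped short of the printed window, and in siChst7 replicate 1, siControl replicate 1 and siControl replicate 2 it covered 203, 300 and 287 of its 300 bases.

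The second Myh9 region stood 5.9 kb downstream of the start (chr15:77835912-77836776), with folds of 9.61 and 7.46 in siChst7 and 7.001 and 7.674 in siControl. The other 3 lay together deep in the gene body. The region 41.6 kb downstream (chr15:77800150-77801473) had folds of 14.2 and 5.37 in siChst7, against 10.1 and 8.84 in siControl. Only 47 bp separated it from the region 43.2 kb downstream (chr15:77798017-77800102), which had 14.4 and 10.5 in siChst7, against 8.11 and 5.62 in siControl. That region was the broadest of the 10, at 2086 bp, and siControl replicate 2 listed 2 peaks in it. The last, 47.0 kb downstream (chr15:77794683-77795300), had 7.30 and 4.93 in siChst7 and 5.84 and 6.35 in siControl. The 5 regions thus fall between 0.4 kb upstream and 47.0 kb downstream of the start of a gene 81.6 kb long, and no region of Myh9 in any list lay beyond that point.

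Among the 6 other Myh9 regions, 2 were in 3 lists. A region 21.4 kb downstream was listed with folds of 8.59 in siChst7 replicate 1 and 6.61 and 5.59 in siControl, and not in siChst7 replicate 2. A region 9.6 kb downstream was listed with 6.00 and 5.05 in siChst7 and 5.93 in siControl replicate 1, and not in siControl replicate 2. The highest fold among the 6 was 10.7, in siChst7 replicate 1, at a region 35.2 kb downstream that siControl replicate 2 listed at 5.66. Myl9, which encodes a regulatory light chain of myosin (chromosome 2, 156775408 to 156781657), had no region. The nearest region of any list was 60.7 kb from it, and the nearest common one lay 192.4 kb away, inside Ndrg3.

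**Figure D2:**
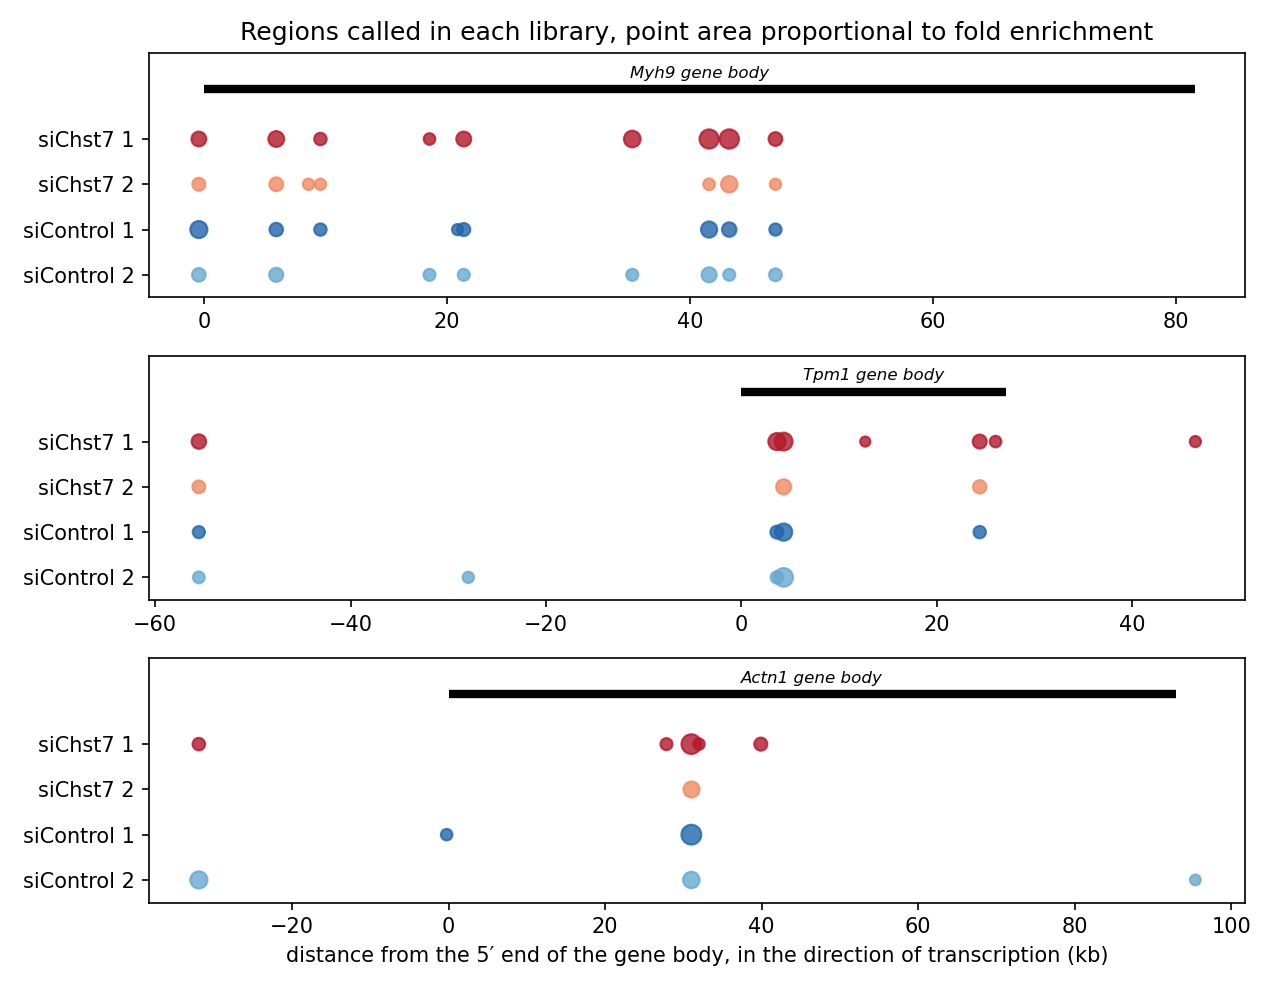
Positions of the regions of Myh9, Tpm1 and Actn1 in each library, as the distance in kb of the region's median summit from the 5′ end of the gene body, with the gene body as a black bar and the area of each point in proportion to its fold enrichment. Regions of Myh9 lie between 0.4 kb upstream and 47.0 kb downstream of the 5′ end in all 4 libraries. In siChst7 replicate 2 none lies between 9.6 and 41.6 kb. Actn1 has a single position shared by all 4 libraries.

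Of the actin and its crosslinker, the crosslinker gene had regions and the actin gene had none. Actn1 (chromosome 12, 80167542 to 80260420, minus strand) encodes alpha-actinin 1. Its common region stood 31.0 kb downstream of the start, inside the gene (chr12:80228791-80230157), with folds of 15.0 and 9.93 in siChst7 and 15.2 and 10.5 in siControl. The 4 summits lay within 20 bp of each other, the closest agreement of the 10 common regions. Its 6 other regions were called in 1 or 2 lists. The highest fold among them was 11.4, in siControl replicate 2, at a region 32.0 kb upstream of the start (chr12:80291950-80292820) that siChst7 replicate 1 listed at 6.06. A peak 0.3 kb upstream of the Actn1 start, with a fold of 5.15, was in siControl replicate 1 alone.

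Acta2 (chromosome 19, 34240336 to 34255585) encodes smooth muscle alpha-actin, the usual mark of a myofibroblast. The nearest region in any list was 113.7 kb from it, beyond 100 kb, and belonged to Fas. The nearest common region was 176.2 kb away and belonged to Lipn. Acta2 lay nearest to 32.8 kb of the genome, against a median of 46.4 kb for all genes. The farthest region that a gene of the set owned lay 55.5 kb from the gene's end, at Tpm1, which lay nearest to 134.3 kb.

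Both tropomyosin genes, whose products wind along actin filaments, owned common regions. Tpm1 (chromosome 9, 67022590 to 67049672, minus strand) had 2, given here by distance from the RefSeq start at 67049213, which lies inside the annotated gene end. The first stood 3.9 kb downstream of the RefSeq start (chr9:67045082-67045606), with folds of 12.2 and 8.78 in siChst7, against 11.5 and 13.5 in siControl. Beside it, 3.2 kb downstream of the start, a region was called in 3 lists with 11.2 in siChst7 replicate 1 and 6.53 and 5.98 in siControl, and was missing in siChst7 replicate 2. The second common region stood 56.0 kb upstream of the start, outside any gene (chr9:67104534-67106530), with folds of 8.14 and 6.37 in siChst7 and 5.72 and 5.42 in siControl. Its 4 summits spread over 906 bp, the widest of the 10, and 3 of the lists held 2 peaks in it. Towards the other end of Tpm1, a region 23.9 kb downstream of the start had 7.59 and 6.94 in siChst7 and 5.93 in siControl replicate 1.

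Tpm2 (chromosome 4, 43513726 to 43523583, minus strand) had 1 region, called in all 4 lists, 1.0 kb downstream of the start (chr4:43522253-43522893). Its folds were 4.07 and 4.93 in siChst7, against 8.38 and 6.83 in siControl. The −log10 q was 2.28 and 3.71 in siChst7, against 9.60 and 6.55 in siControl. Its fold was the lowest of the 10 common regions in siChst7 replicate 1 and equal lowest, with the Myh9 region 47.0 kb into the gene, in siChst7 replicate 2. At a q of at most 0.001, at a fold of at least 5 or at equal list length it was no longer in all 4 lists.

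The calponin family had no regions of its own, and of all genes 25.1% owned a region in any library. Cnn1, Cnn2 and Tagln lay nearest to 18.3, 9.46 and 15.5 kb, against a median of 46.4 kb for all genes. Common regions lay close to a pair of the family's genes. Proteins of the calponin family bind actin filaments, and Cnn1 and Tagln are used as markers of smooth muscle and myofibroblasts. Near Cnn2 (chromosome 10, 79988600 to 79995400), common regions lay 2.3 and 4.0 kb upstream of the gene, and the rule gave them to Tmem259, whose end was 2.0 and 0.3 kb away. The closer one (chr10:79985699-79986918) had folds of 10.2 and 6.31 in siChst7, against 7.16 and 8.30 in siControl. The other (chr10:79984349-79985192) had 8.14 and 7.57 in siChst7, against 7.38 and 5.96 in siControl. When a region was given to every gene body within 5 kb, Cnn2 owned a region in all 4 lists and the count of genes was 6 of 10. Without siControl replicate 2 the count was also 6, because the median summit of the closer region was then 2.1 kb from Cnn2 and 2.2 kb from Tmem259.

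Near Cnn1 (chromosome 9, 22099221 to 22109221), a common region stood 9.1 kb upstream (chr9:22089813-22090381) and belonged to Ecsit, 3.8 kb away. It had folds of 12.6 and 5.42 in siChst7, against 10.6 and 10.1 in siControl. Tagln (chromosome 9, 45929628 to 45936058), which encodes transgelin, had its nearest region in any list 63.1 kb away and its nearest common one 111.4 kb away, inside Sik3.

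Vim (chromosome 2, 13574311 to 13582826, plus strand), the gene of the intermediate filament protein vimentin, had the highest fold of the set in each list. Its common region ran from upstream of the start across it (chr2:13572724-13574471), with the median summit 593 bp upstream. The folds were 25.4 and 18.7 in siChst7, against 24.1 and 20.4 in siControl. The 4 summits, each of the peak of highest fold in its list, lay within 38 bp of each other. The list of siChst7 replicate 2 held 2 peaks in the region. Peaks covered all 300 bases of the printed window in siChst7 replicates 1 and 2 and siControl replicate 2, and 48 bases in siControl replicate 1. The capitals in the Vim sequence are those 48 bases, at its upstream end. The 3 other Vim regions were called once each, 2 of them in siChst7 replicate 1 and 1 in siChst7 replicate 2. The highest of them had a fold of 7.50 in siChst7 replicate 1, past the 3′ end of the gene.

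Among the other 1823 genes with a common region, those whose 4 fold percentiles within the lists were nearest to Vim's were Adamtsl2, Mapk6 and Atp8b4, at distances of 0.739, 0.756 and 1.04 percentile points over the 4 lists. Their folds ran from 18.1 to 24.0 for Adamtsl2, from 18.7 to 25.6 for Mapk6 and from 20.1 to 30.2 for Atp8b4.

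The 10 common regions were spread over the range of all 2785 common regions when each was ranked by fold within its list. The percentile is the share of common regions with a lower fold in the same list, so that the same regions are ranked in each library. The median of the 10 was 51.8 and 37.0 in siChst7, against 52.8 and 39.9 in siControl. Vim held percentiles of 96.2 and 96.8 in siChst7 and 97.3 and 97.2 in siControl. Actn1 held 77.4 and 72.7 in siChst7 and 88.3 and 73.3 in siControl. The Myh9 region 47.0 kb into the gene was among the lowest, with 17.9 and 6.75 in siChst7 and 12.7 and 24.9 in siControl.

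**Figure D3:**
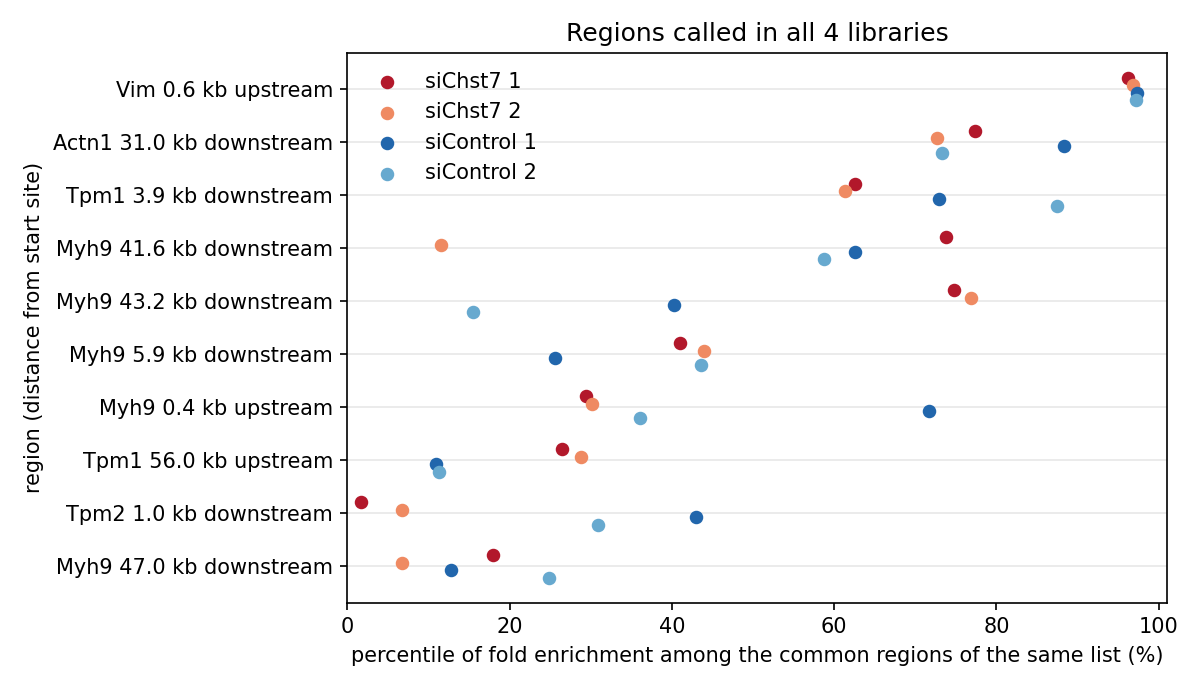
Percentile of fold enrichment of each common region among the 2785 common regions of the same list, with 1 point per library and regions named by their distance from the start site. Vim lies between 96.2 and 97.3 in all 4 libraries, while the Myh9 region 41.6 kb downstream runs from 11.5 to 73.8.

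At some regions the ranks of the siRNA groups did not overlap. Both siChst7 percentiles lay above both siControl percentiles at 2 of the 10 regions, a share near the 19.7% of all common regions. Both lay below at 4 of the 10, against 19.9% of all. The Myh9 region 43.2 kb downstream ranked at 74.7 and 76.9 in siChst7, against 40.2 and 15.4 in siControl. The Tpm1 region 56.0 kb upstream ranked at 26.4 and 28.8 in siChst7, against 11.0 and 11.3 in siControl. These are the 2 that ranked higher in siChst7, and in both genes another region ranked lower.

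The Tpm2 region ranked at 1.69 and 6.75 in siChst7, against 43.0 and 30.8 in siControl. The Tpm1 region 3.9 kb downstream ranked at 62.6 and 61.3 in siChst7, against 72.9 and 87.5 in siControl. The region on the Myh9 start ranked at 29.4 and 30.1 in siChst7, against 71.7 and 36.1 in siControl, and Vim completed the 4. The gap at Vim was under 1 percentile point between the nearest libraries. With 2 libraries in each group no permutation of them can give a p below 0.333, so these rank differences are given as values.

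Most of the 10 common regions lay inside genes. The summit was inside a protein-coding gene at 7 of 10, against 51.0% of all common regions, and within 1 kb of a gene end at 2 of 10, those of Vim and Myh9, against 7.94% of all. The median width was 1240.5 bp, against 925 bp, and the median spread of the 4 summits was 260.5 bp, against 186 bp. These are descriptions of 10 regions, 5 of which belong to Myh9. Whether a region was exonic or intronic was not analysed here.

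Other genes of the cytoskeleton also owned common regions, among them Flnc, Actn4 and Lmna. Of 51 further contractile and cytoskeletal genes, 25 owned a region in the pair of siChst7 libraries, against 11.3% of all genes, and 22 in both siControl libraries, against 11% of all. A region in all 4 libraries was owned by 19, or 37.3%, against 8.33% of all genes. Flnc, a filamin that crosslinks actin, had a region with folds of 16.4 to 24.9 over the 4 lists, 2.0 kb from its end. Actn4, the second nonmuscle alpha-actinin, had one of 14.3 to 20.4 inside the gene. Pdlim7 and Fhl2, LIM domain proteins of stress fibres, had regions of 11.0 to 15.1 and 10.4 to 13.3. Myl12a, another regulatory light chain, had one of 10.4 to 21.9 at 0.2 kb from its end, and Tes, a focal adhesion protein, one of 9.88 to 11.6. Of the 51, 18 owned no region in any library. This is a smaller share than among all genes, of which 25.1% owned one and most owned none. The 18 included the close relatives Actg2, Actc1, Cnn3, Tagln3, Tpm3, Myl6, Myl12b, Myh11 and Myh14.

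Of 10 further intermediate filament and linker genes, 5 owned a region in both siChst7 libraries, against 11.3% of all genes, 5 in both siControl libraries, against 11%, and 5 in all 4, against 8.33%. Lmna, which encodes nuclear lamins, had folds of 21.9 to 60.6, and Plec, the plectin linker, had 19.4 to 36.3. Krt18, Lmnb1 and Krt8 followed, with 12.7 to 19.0, 7.63 to 11.9 and 5.34 to 7.57. Of the 10, 4 owned no region in any library: Gfap, Prph, Synm and desmin (Des), the muscle counterpart of vimentin. Among all genes, 25.1% owned a region in any library and most owned none.

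Marker genes of muscle and other cells were counted in the same way, beside all protein-coding genes, of which 8.33% owned a common region and 25.1% a region in any library. Of 9 smooth muscle markers, 1 owned a common region, a share near that of all genes. It was Lmod1, with folds of 7.46 to 11.2 at 0.7 kb from its end, and 6, Myh11, Des, Actg2, Hspb6, Kcnmb1 and Pln, owned none in any list. Of 11 cardiomyocyte sarcomere markers, 0 owned a region in both libraries of either group, against 11.3% of all genes in siChst7 and 11% in siControl. With so few genes, 0 lies near these shares. In this list 9, Myh6, Myh7, Tnni3, Tnnc1, Actc1, Actn2, Ttn, Myl2 and Mybpc3, owned none at all, as did most of all genes. Endothelial markers gave 4 of 8 in all 4 libraries (Cldn5, Cdh5, Kdr and Vwf), against 8.33% of all genes. Macrophage markers gave 0 of 8 in both siChst7 libraries, against 11.3% of all genes, and 3 of 8 in both siControl libraries, against 11% of all. In all 4 libraries they gave 0 of 8, against 8.33%. A gene can drop from the siChst7 count through siChst7 replicate 2 alone. That list was the shortest, at 4735 peaks, and it alone lacked 901 regions that the other lists held. The difference between the siRNA groups was not tested. Some genes stand in more than 1 of these lists, such as Des, Myh11 and Actc1. Owning a region says nothing of expression, and these lists do not measure which cells were present.

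**Figure D4:**
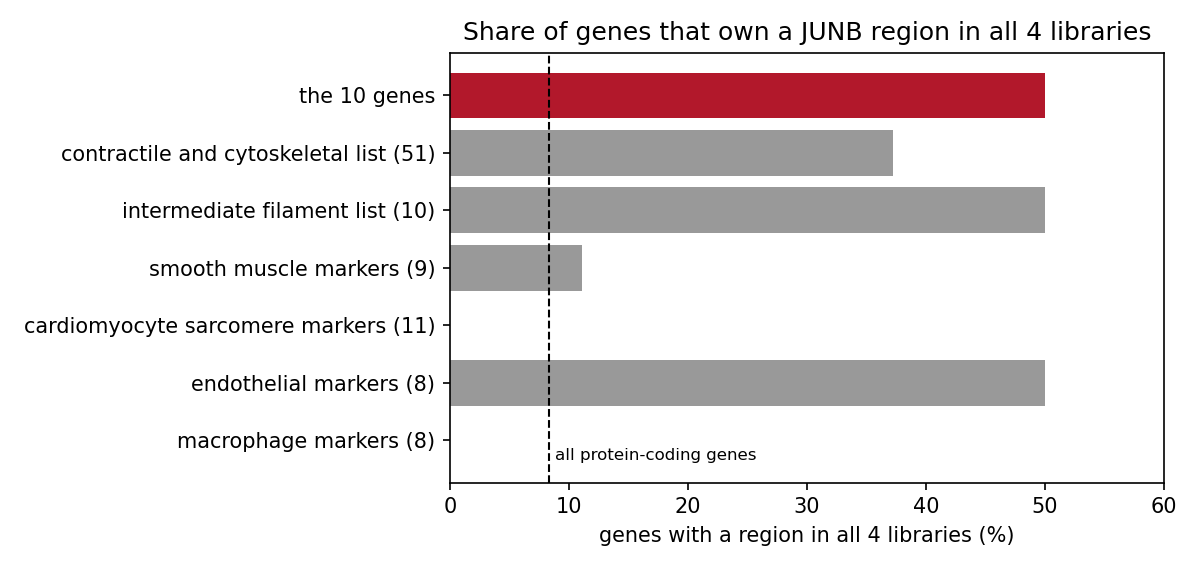
Share of genes in percent that own a JUNB region in all 4 libraries, for the 10 genes (top bar) and each further list with its number of genes in brackets, with all protein-coding genes as a dashed line at 8.33%. The 10 genes, the intermediate filament list and the endothelial markers each stand at 50%, and the contractile list at 37.3%. The smooth muscle markers stand at 11.1%, and the 11 cardiomyocyte markers and the macrophage markers at 0%.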

How the data were processed

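The 4 deposited peak lists, 1 per JUNB library, were used. Per the submitters' processing notes the authors used Bowtie2, MACS3 and build mm10, and none of the sources used here gives versions, settings or a control library for calling peaks. Each deposited peak carries a fold enrichment over local background (a ratio), a p-value and a q-value as −log10, a score that is 10 times the −log10 q, and a summit, all as the authors' caller gave them. The lists end near a q of 0.01. The labels state 30 M reads per library, the true depth is unknown here, and a region missing from a list may hold signal below its threshold.

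Peaks that shared 1 bp or more were merged into regions, and a region went to the RefSeq protein-coding gene (GRCm38.p6, the assembly of mm10) whose end was nearest to its median summit, within 100 kb. A list with several peaks in a region was represented by that of highest fold. "Common" means called in all 4 lists. Coordinates are 1-based. The 10 genes, the further lists and the alternatives were chosen with earlier results of these data known. All 10 genes and all their common regions are named, with the other regions as counts and the highest per gene. Up to 6 genes with a common region are named from each further list, beside examples without a region. The genes with a common region were taken by their lowest fold over the 4 lists, highest first. One further list is not reported here. Region numbers per library were compared by exact permutation, which measures only the spread between these libraries. The scripts were tested on simulated peak lists. Sequence came from the RefSeq promoter table alone. Software was Python 3.11.15, NumPy 2.4.6, pandas 2.3.3 and Matplotlib 3.10.9.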

Additional observations from a re-analysis of the deposited data

How the results depend on the processing

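Actn1, Myh9, Tpm1 and Vim owned a region in all 4 lists, or in all lists kept, under each alternative except assignment within 20 kb, which left out Actn1. The number of genes stayed between 4 and 6. With 50% reciprocal overlap there were 1 siChst7-only and 2 siControl-only regions, against 0 of each, and with a fold of at least 5 there was 1 siControl-only region. Assignment within 20 kb left 5 common regions of 10, 50% reciprocal overlap left 7, and summits with 100 bp on each side left 8. Leaving out 1 library gave 10 to 13 common regions, 0 to 8 siChst7-only and 0 to 2 siControl-only regions, because a region then needs fewer lists. The difference in regions per library, siChst7 minus siControl, was -2 to 8.5 on leaving out 1 library and -0.5 at equal list length (exact permutation, p = 1), so its direction rests on the long list of siChst7 replicate 1.

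The siRNA groups share replicate numbers. With a replicate block the difference was 3 regions (exact sign permutation, p = 1). Over the 2785 common regions, the differences between replicates 1 and 2 in the siRNA groups correlated at r = 0.063. With a single such difference per group, this value cannot show whether libraries of the same number were processed together. The labels name no shared batch, so the numbers were not taken as pairs. Depth cannot be read from peak lists, and without the IgG libraries no antibody background stands beside any value.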
